A study of Mus musculus with 5 samples.

Results

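Hmgcs1, Idi1, Fdps, Fdft1, Sqle, Cyp51 and Msmo1 encode enzymes of cholesterol synthesis, and their levels were followed across the 12 labels of oligodendrocyte (OL) lineage cells of the mouse corpus callosum and across 2 sorted libraries. The 7 genes were taken by name as rows of the deposited matrix, 7 of its 11733 genes, by a rule that used no measured value, though with earlier results of these data known. All 7 act in synthesis and none in uptake, so the receptors, carriers and storage enzymes of cholesterol were read from a list of their own. The cells came from healthy mice at P60, on a mixed CBA and C57BL/6 background, with tissue of 2 mice pooled. The mice carried Emx1::Cre and Sox10::Cre together with a LoxP-GFP-STOP-TdTom reporter. Emx1::Cre acts in dorsal forebrain progenitors, and by the study's definition TdTom+ cells are of dorsal and GFP+ cells of ventral origin. The study also writes the strain with Sox10 as part of the reporter, and how the Sox10 element acts was not checked here. Each origin gave a single 3′ library (10x Genomics, version 2), with no replicate and therefore no test between origins.

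Cholesterol is made from acetyl units in the mevalonate pathway. Hmgcs1 joins acetoacetyl-CoA and acetyl-CoA at the pathway's entry, and Idi1 and Fdps build farnesyl pyrophosphate from the isoprene units that follow. Fdft1 then makes squalene, Sqle oxidises it, and Cyp51 and Msmo1 remove methyl groups from the first sterols. Myelin is rich in cholesterol, which hardly crosses the blood-brain barrier, so that OLs depend on synthesis in the brain. The transcription factors Srebf1 and Srebf2 switch the pathway on when membrane sterol is low, together with NF-Y and Sp1 bound nearby.

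The 7 genes lie on 6 chromosomes (mm10, positions of GENCODE genes). Hmgcs1 is at chr13:119690379-119708260 on the plus strand and Idi1 at chr13:8885501-8892451 on the plus strand. Fdps is at chr3:89093588-89101959 and Fdft1 at chr14:63145150-63179578, both on the minus strand. Sqle is at chr15:59315077-59331192 on the plus strand, Cyp51 at chr5:4081145-4104746 and Msmo1 at chr8:64718139-64733792 on the minus strand. Fdps overlaps 2 genes on its own strand, Gm43738 and Gm22935, which are not rows of the matrix, so its counts are less certain. Fdft1 and Cyp51 overlap Ctsb and Akap9 on the opposite strand, and the sources used here do not say whether reads were counted by strand.

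Promoter sequence is shown because the pathway's genes share control elements close to their starts. RefSeq promoter windows (GRCm38.p6) were found for Hmgcs1, Idi1, Cyp51 and Msmo1, and are not shown for Fdps, Fdft1 and Sqle. The 250 bases before each start were searched on both strands for the sterol element TCACNCCAC, the NF-Y box CCAAT and the GC box GGGCGG. Capitals mark the motifs on either strand, and the marked sites do not overlap each other. Hmgcs1 is given over the 150 bases before its start, and the others over 30 bases around the NF-Y box nearest to the start.
Hmgcs1, chr13:119690201-119690350, plus strand: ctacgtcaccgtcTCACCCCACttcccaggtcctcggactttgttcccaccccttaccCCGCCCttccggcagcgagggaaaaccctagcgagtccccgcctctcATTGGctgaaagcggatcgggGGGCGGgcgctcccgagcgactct
Idi1, chr13:8885576-8885605, plus strand: catggtccaaggtgccATTGGctggcgacc
Cyp51, chr5:4104710-4104739, minus strand: ccgctgtccgccaCCAATctggtcctgaga
Msmo1, chr8:64733617-64733646, minus strand: ggagtgGGGCGGaCCAATtacgacaggcga

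The Hmgcs1 window held all 3 elements, with the sterol element at 137 bases before the start and an NF-Y box at 45. For Idi1, Cyp51 and Msmo1 the GENCODE gene starts further upstream than the RefSeq one, so these stretches lie inside the GENCODE gene bounds. Of a list of 20 cholesterol synthesis genes, 15 had 18 windows between them. The NF-Y box was found in 14 of these 18 windows, against 33.8% of all 32851 promoter windows. The GC box was found in 15 of 18, against 32.7%, and the sterol element in 1, that of Hmgcs1, against 1.05%. These are matches of letters in a window and not measured binding.

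The TdTom+ library held 1901 cells with 7129294 UMIs and the GFP+ library 952 cells with 3584940 UMIs, at medians of 3340 and 3307 UMIs per cell. The libraries shared 1 cell barcode. The 7 enzymes together had 3105 UMIs in the TdTom+ and 1477 in the GFP+ library, so levels were summed over the cells of a label and given as counts per 1000000 UMIs (CPM). These 3′ tag counts are not scaled by gene length and are compared between cells, not between genes. The labels are the authors' clusters of these same cells, made from their expression, so levels by label are descriptions without a test. Bounds in parentheses are 95% intervals for counting error only, exact except for differences of shares. Of 34 lineage markers in the matrix, 29 were highest in the label class they mark. One MFOL2 cell of the TdTom+ library held 84 of the 93 microglial marker UMIs of both libraries and 0 UMIs of the 7 enzymes.

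The summed level of the 7 enzymes differed by label over a wide range, in a similar order in both libraries. It was highest in COP/NFOL, the committed precursors and newly formed OLs, at 1117 CPM (948 to 1308) over both libraries. MOL2/4 followed at 763 CPM (680 to 854), then MOL2/MFOL at 607 CPM and MOL1 at 585 CPM. MOL2a, MFOL1 and MOL2b lay at 480, 466 and 422 CPM and MFOL2 at 367 CPM. The lowest levels were in MOL6a at 336 CPM, MOL4-5/6 at 265 CPM, MOL6b at 250 CPM and OPC, the precursor cells, at 230 CPM (176 to 295). Between neighbours in this order the intervals did not overlap from COP/NFOL to MOL2/4, from MOL2/4 to MOL2/MFOL, from MOL1 to MOL2a and from MOL6a to MOL4-5/6. All other neighbours overlapped. These intervals leave out the spread between cells, and the top step rests on the TdTom+ library. In the GFP+ library MOL2/4, at 801 CPM, stood above COP/NFOL at 598 CPM.

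**Figure D1:**
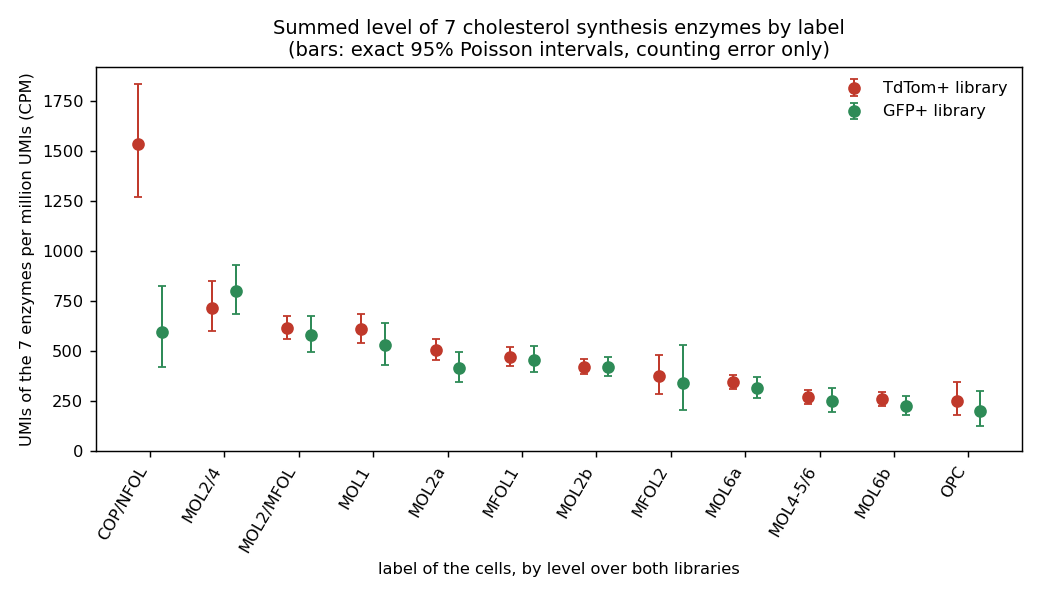
Summed level of the 7 enzymes in CPM (vertical axis) for each of the 12 labels (horizontal axis, ordered by the level over both libraries), as points for the TdTom+ and GFP+ libraries with exact 95% Poisson intervals. COP/NFOL of the TdTom+ library stands at 1534 CPM, MOL2/4 is highest in the GFP+ library at 801 CPM, and OPC is lowest in both.

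COP/NFOL was the only one of the 12 labels in which the interval of the ratio of summed levels between libraries left out 0. Hmgcs1, Fdps, Sqle and Msmo1 stood at 286, 390, 273 and 416 CPM in the 11 COP/NFOL cells of the TdTom+ library. In the 8 COP/NFOL cells of the GFP+ library they stood at 243, 32.3, 32.3 and 226 CPM. The sum was 1534 CPM (1270 to 1838) and 598 CPM (421 to 825), a log2 ratio of 1.36 (0.81 to 1.93). A single GFP+ cell gave 20 of the 37 UMIs of that group and 13 of its 14 Msmo1 UMIs, and a single TdTom+ cell gave 22 of 118. These cells were the deepest, with medians of 8215 and 8212 UMIs.

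Hmgcs1, the entry enzyme, was higher in COP/NFOL, MOL2/4 and MOL2/MFOL than in the MOL5/6 labels. In the TdTom+ library it stood at 286 CPM in COP/NFOL, 175 CPM in MOL2/4, 154 CPM in MOL2/MFOL, 153 CPM in MFOL1, 142 CPM in MOL1, 128 CPM in MOL2b, 124 CPM in MOL2a and 121 CPM in MFOL2, and at 68.9, 66.8 and 65.5 CPM in MOL6b, MOL4-5/6 and MOL6a. In the GFP+ library it stood at 243 CPM in COP/NFOL, 211 CPM in MOL2/4, 158 CPM in MOL1, 140 CPM in MOL2/MFOL, 128 CPM in MOL2b, 120 CPM in MFOL1 and 115 CPM in MOL2a, and at 83.7, 63.7 and 50.9 CPM in MOL6a, MOL4-5/6 and MOL6b. MFOL2 of the GFP+ library, at 35.8 CPM from 2 UMIs, lay below the MOL5/6 labels. OPC held 58.0 CPM from 9 UMIs and 18.1 CPM from 2 UMIs. In both libraries all 3 labels of the MOL5/6 class were below MOL1 and the 3 MOL2 labels.

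Msmo1, the methyl sterol oxidase, followed the sum of the other enzymes most closely of the 7. In the TdTom+ library it stood at 416 CPM in COP/NFOL, 217 CPM in MOL1, 170 CPM in MOL2/MFOL, 145 CPM in MOL2a, 142 CPM in MOL2/4, 123 CPM in MFOL1 and 104 CPM in MOL2b. The remaining TdTom+ labels ran from MOL6a at 99.2 CPM and MFOL2 at 97.1 CPM through OPC at 70.9 CPM and MOL4-5/6 at 64.3 CPM to MOL6b at 55.4 CPM. In the GFP+ library MOL2/4 was highest at 238 CPM, COP/NFOL stood at 226 CPM, MOL2/MFOL at 151 CPM, MFOL1 at 146 CPM, MOL1 at 143 CPM and MOL2b at 132 CPM. MOL2a at 108 CPM, MFOL2 at 107 CPM, MOL6a at 81.6 CPM, MOL6b at 70.3 CPM, MOL4-5/6 at 60.2 CPM and OPC at 36.2 CPM from 4 UMIs followed. MOL1 was 1.19 higher than the other mature labels on the log2 scale in the TdTom+ library (0.87 to 1.51), and 0.38 in the GFP+ library (-0.23 to 0.94), where it turned to -0.26 after each cell was thinned to 2400 UMIs.

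Fdps, which makes farnesyl pyrophosphate, was high in MOL2/4 and MOL2/MFOL. It stood at 263 CPM in MOL2/4 of the TdTom+ library and at 133 CPM in that of the GFP+ library. MOL2/MFOL held 137 CPM in each and MOL1 98.6 and 98.8 CPM, and all other labels but COP/NFOL lay between 36.4 and 77.7 CPM. MOL6a, at 74.4 and 77.4 CPM, was as high as MOL2a at 77.7 and 57.6 CPM, so that for Fdps the mature classes overlapped.

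Sqle, squalene epoxidase, was low in the MOL5/6 class. It held 30.8, 20.2 and 19.2 CPM in MOL6a, MOL4-5/6 and MOL6b of the TdTom+ library, and 23.0, 21.2 and 4.85 CPM in those of the GFP+ library. The MOL2 labels held 87.6 CPM in MOL2/4, 57.6 CPM in MOL2a and 47.0 CPM in MOL2b of the TdTom+ library, and 59.5, 50.9 and 43.5 CPM in those of the GFP+ library. The lowest MOL2 label was thus above the highest MOL5/6 label in both libraries. Outside these classes Sqle ran from 27.7 CPM in MFOL1 of the GFP+ library to 273 CPM in COP/NFOL of the TdTom+ library.

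Fdft1, Cyp51 and Idi1 showed no such order in both libraries. For Fdft1 it held in the GFP+ library alone. There the lowest MOL2 label was MOL2b at 35.6 CPM and the highest MOL5/6 label MOL6b at 29.1 CPM. Fdft1, squalene synthase, ran from 21.9 to 61.2 CPM in the TdTom+ and from 16.2 to 77.8 CPM in the GFP+ library. Cyp51, lanosterol demethylase, ran from 18.9 to 91.0 CPM in the TdTom+ library and from 0 to 77.8 CPM in the GFP+ library. MFOL1 was among the highest labels for Cyp51, at 53.4 and 46.2 CPM. Idi1, the isomerase of the isoprene units, had 86 UMIs in all and at most 17 in a label of a library, and its intervals overlapped between all neighbours. Where Idi1 or Cyp51 had 0 UMIs (Idi1 in OPC and MFOL2 of the TdTom+ and COP/NFOL of the GFP+ library, Cyp51 in MFOL2 of the GFP+ library), 3 UMIs would have given 18.2 to 53.7 CPM, so these levels were not detectable at this depth.

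**Figure D2:**
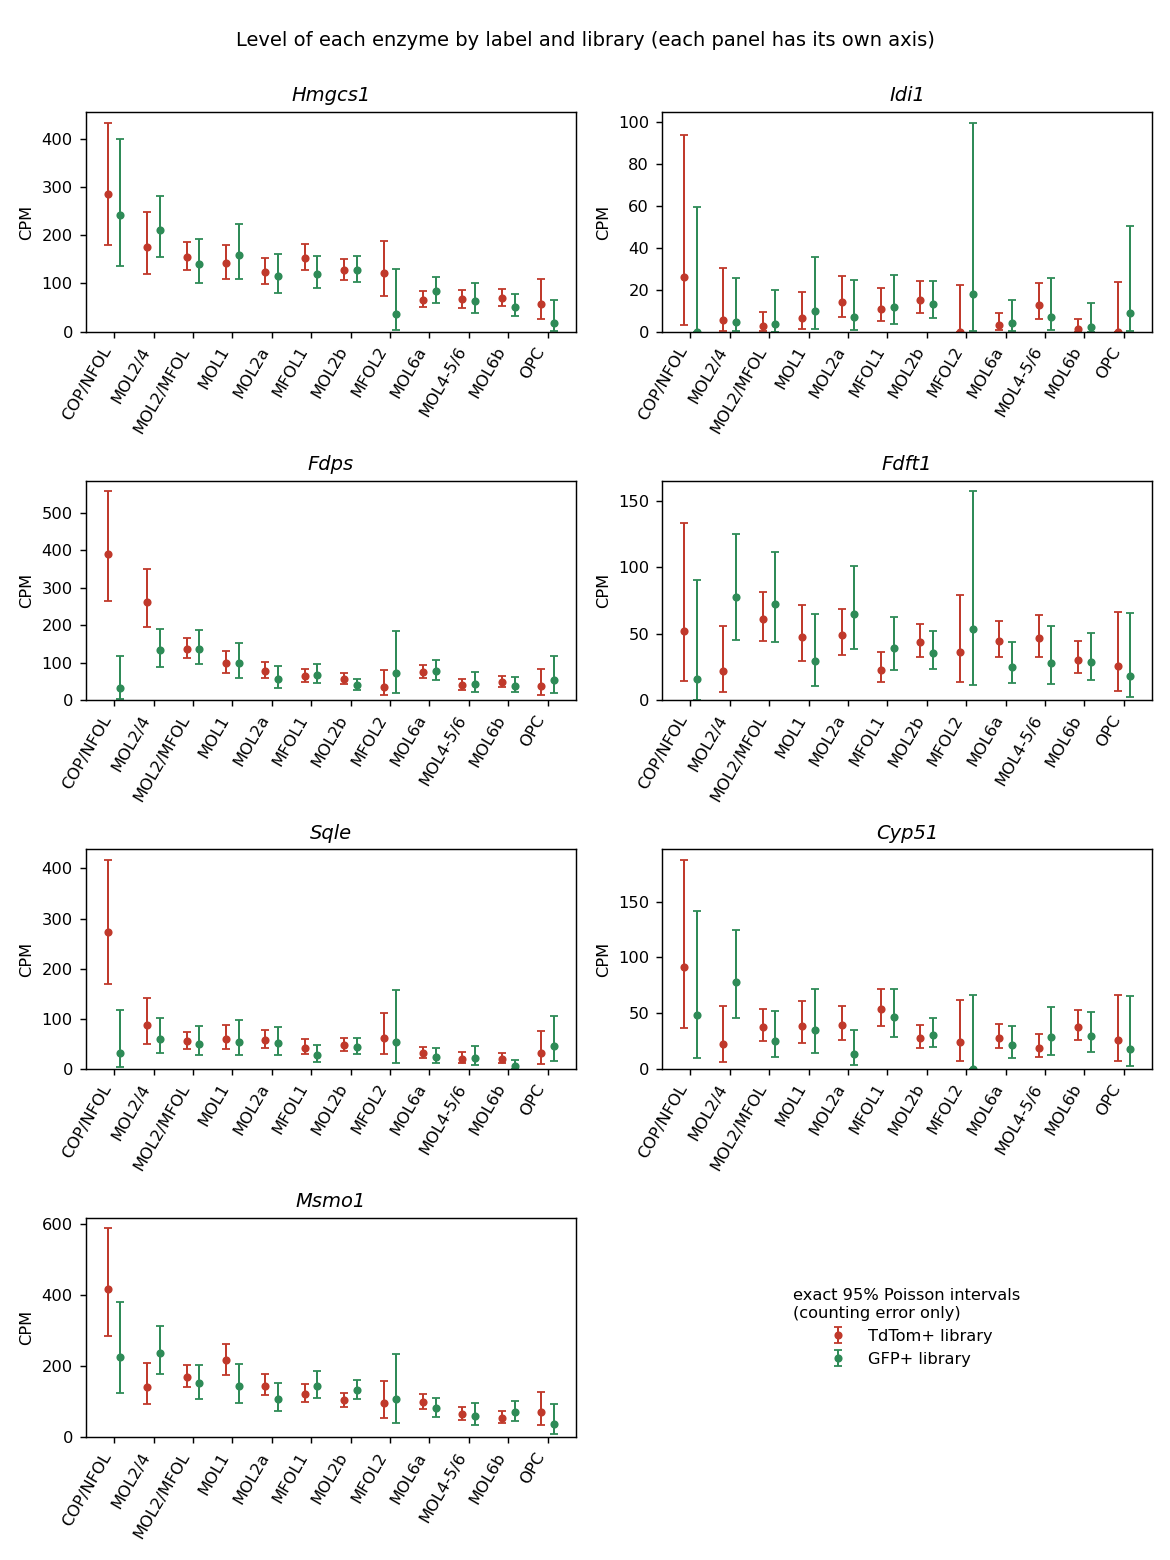
Level in CPM (vertical axis, one scale per panel) of each of the 7 enzymes in the 12 labels (horizontal axis, in the order of the summed level), for the TdTom+ and GFP+ libraries with exact 95% Poisson intervals. Hmgcs1, Msmo1 and Sqle fall broadly from left to right, Fdps is high in MOL2/4 and MOL2/MFOL, and Fdft1, Cyp51 and Idi1 have overlapping intervals in most labels.

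Between the mature classes, the enzymes were lower in MOL5/6 than in MOL2. The classes are groups of the authors' labels. By in situ hybridization the paper found MOL2 cells, marked by Klk6, to be nearly missing from the corpus callosum. The labels MOL4-5/6, MOL6a and MOL6b had a summed level of 295 CPM among TdTom+ cells and 269 CPM among GFP+ cells, and MOL2a, MOL2b and MOL2/4 held 478 and 486 CPM. The log2 ratio was -0.69 (-0.83 to -0.56) in the TdTom+ and -0.85 (-1.06 to -0.66) in the GFP+ library. The MOL5/6 class thus had 61.8% and 55.2% of the MOL2 level. Within each library the 3 MOL2 labels were all above the 3 MOL5/6 labels. The MOL2 labels were no lower than 421 and 417 CPM, and the MOL5/6 labels no higher than 345 and 316 CPM.

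A gene was called between classes where it passed 1.5 fold in the same direction in both libraries. Among the 3 of the 7 enzymes with a mean of at least 50 CPM (Hmgcs1, Fdps and Msmo1), Hmgcs1 and Msmo1 were called lower in MOL5/6, where 4.46% of the 2958 genes past that filter were. Over all 7, with genes in the same range of mean CPM (6941 genes) as background, Idi1 and Sqle were called too, which made 4 of 7 against 4.9%. The median log2 ratio of the 7 was -0.70 in the TdTom+ and -0.99 in the GFP+ library, and over the 6941 genes it was 0.020 and 0.016.

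By gene, Sqle had log2 ratios of -1.16 (-1.66 to -0.73) in the TdTom+ and -1.51 (-2.39 to -0.80) in the GFP+ library. Hmgcs1 had -0.95 (-1.25 to -0.68) and -1.04 (-1.45 to -0.66). Msmo1 had -0.70 (-0.99 to -0.43) and -0.99 (-1.39 to -0.62). Idi1 had -1.27 and -1.09, from 14 and 5 UMIs in the MOL5/6 labels, with an interval that reached 0.32 in the GFP+ library. Fdps, Fdft1 and Cyp51 did not pass in both. Fdps had -0.56 (-0.90 to -0.24) and -0.11 (-0.61 to 0.39). Fdft1 had -0.094 (-0.52 to 0.33) and -0.84 (-1.52 to -0.23), and Cyp51 -0.12 (-0.63 to 0.38) and -0.42 (-1.16 to 0.27).

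MOL2 cells were deeper, with medians of 3837 and 3984 UMIs per cell against 2971 and 2983 in the MOL5/6 labels. MOL2/4 held the highest summed level of the mature labels at medians of 2758 and 3312 UMIs. The cells were also thinned to 2400 UMIs each, a number that 150 cells of the TdTom+ library and 74 of the GFP+ library did not reach. After thinning, a UMI of any of the 7 enzymes was found in 60.3% (55.8% to 64.8%) of 469 MOL2 cells and in 46.5% (42.8% to 50.1%) of 749 MOL5/6 cells of the TdTom+ library. In the GFP+ library it was found in 60.4% (54.4% to 66.1%) of 285 and in 42.9% (37.5% to 48.3%) of 336 cells. The differences were 13.9 points (8.02 to 19.6) and 17.5 points (9.41 to 25.3), with bounds that combine the limits of both shares and are not exact. Without thinning the shares were 74.0% and 55.0% in the TdTom+ library, and 76.3% and 49.9% in the GFP+ library. Every cell type can make cholesterol, so no label served as a blank for these shares. The level that free RNA can leave is seen in the 10 myelin genes, whose sum in OPC was 4.01% and 5.46% of that in the mature labels, and the 7 enzymes stood at 63.7% and 50.7%. Its part in single shares was not tested.

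At this depth most cells showed none or 1 of the enzymes. In thinned MOL2 cells 20.9% and 18.2% held exactly 2 of the 7, and 4.69% and 4.56% held 3. In MOL5/6 cells 11.2% and 8.04% held 2, and 2.14% and 1.19% held 3. At least 4 were found in 11 and 7 MOL2 cells and in 2 and 1 MOL5/6 cells, and no cell held more than 5. Pairs of the 7 enzymes were seen in the same cell 650 times in the TdTom+ library, where the shares within each label would give 522 if the genes were independent. In the GFP+ library the numbers were 277 and 231. Of the 21 pairs, 13 were above that number in both libraries. Sqle with Msmo1 was seen in 56 TdTom+ cells where 34.5 were computed, and in 26 GFP+ cells where 14.3 were. Hmgcs1 with Msmo1 was seen in 69 TdTom+ cells where 74.9 were computed, and in 45 GFP+ cells where 39.3 were. These counts are sparse and were not tested.

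**Figure D3:**
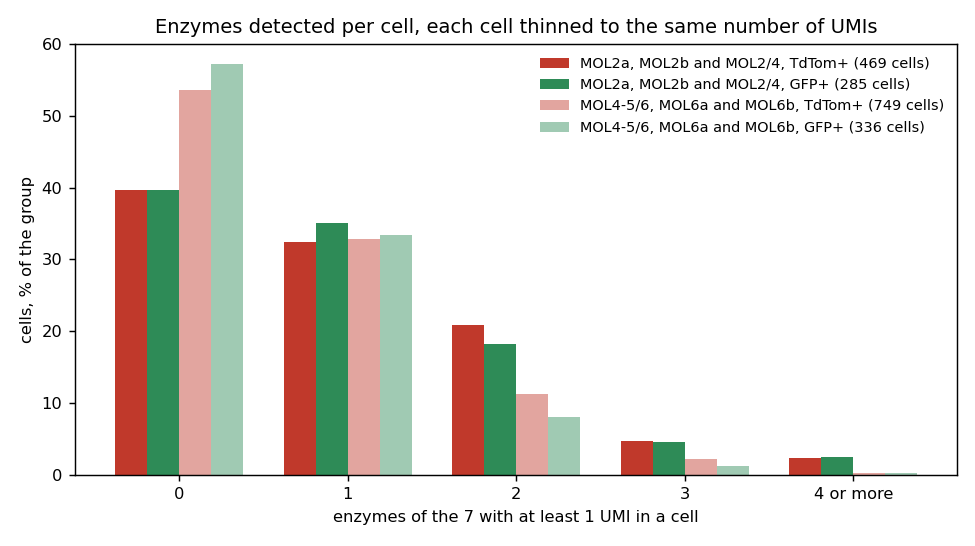
Percent of cells (vertical axis, bars from 0) in which 0, 1, 2, 3 or at least 4 of the 7 enzymes had a UMI (horizontal axis), after thinning each cell to 2400 UMIs, for the MOL2 labels and the MOL5/6 labels in the TdTom+ and GFP+ libraries. Cells with none make up 39.7% and 39.6% of the MOL2 cells and 53.5% and 57.1% of the MOL5/6 cells.

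The rest of the synthesis pathway was lower in the MOL5/6 labels as well. The other 13 genes of the list of 20 had a summed log2 ratio of -0.65 (-0.79 to -0.51) in the TdTom+ and -0.78 (-0.98 to -0.59) in the GFP+ library. With no filter on level, 8 of the 20 were called lower and 0 higher in MOL5/6, where 5.74% of all 11733 genes were called lower and 4.79% higher. Beside the 4 enzymes above these included Hsd17b7 (-0.87 and -1.15) and Ebp, a sterol isomerase (-0.72 and -0.93). Pmvk, the phosphomevalonate kinase and the only other synthesis gene with a mean of at least 50 CPM, had -0.61 and -0.26. The median over the 20 genes, with the enzymes reported above among them, was -0.66 and -0.80, against 0 and 0 over all genes.

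**Figure D4:**
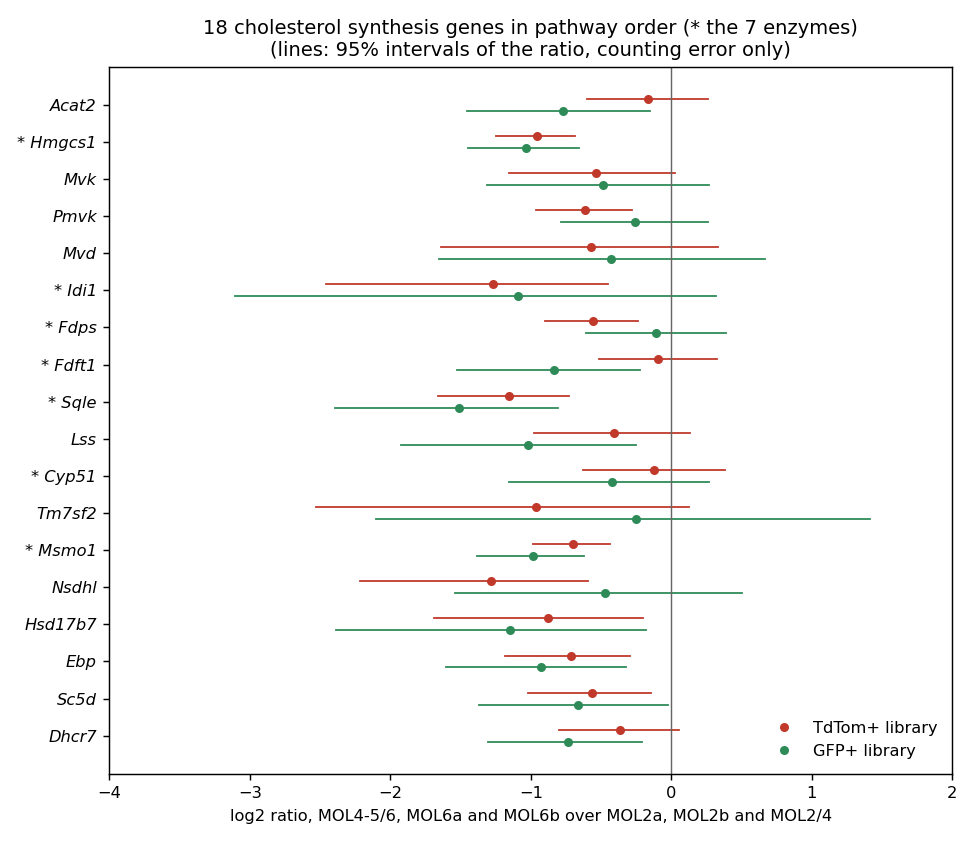
Log2 ratio of CPM, MOL5/6 labels over MOL2 labels (horizontal axis), for 18 of the 20 cholesterol synthesis genes in pathway order (vertical axis, stars mark the 7 enzymes), in the TdTom+ and GFP+ libraries, with 95% intervals for counting error as lines. All 18 points of each library lie below 0, from Sqle at -1.51 in the GFP+ library to Fdft1 at -0.094 in the TdTom+ library.

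Neighbouring branches had medians nearer to 0, and their counts, like that above, are with no filter and stand against the same 5.74% lower and 4.79% higher. The isoprenoid branch uses the same precursors for prenylation, dolichol and coenzyme Q. Of its 10 genes, 1 was called lower and 0 higher in MOL5/6, the farnesyltransferase subunit Fntb (-1.33 and -1.96), and the median was -0.057 and 0.025. Fnta, the other subunit, had -0.38 and -0.60, Coq2 0.0055 and -0.094, and Nus1 0.11 and 0.48. Of 13 sterol regulators 1 was called higher, Erlin2 (1.17 and 0.69), and 1 lower, Scap, which carries the Srebf proteins (-0.88 and -0.70). Srebf2 itself had -0.39 and -0.21, Insig1, the retention protein, 0.22 and 0.68, Ubxn4 -0.14 and -0.16, and Nr1h2 0.21 and 0.38. Srebf1 had 0.58 and 0.70, just under the fold in the TdTom+ library.

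Among 21 genes of uptake, transport and storage, 1 was called higher in MOL5/6 and 2 lower, against 4.79% and 5.74% of all genes. Apoe, the main lipid carrier of the brain, stood at 1910 CPM in MOL5/6 and 485 CPM in MOL2 of the TdTom+ library and at 2180 and 503 CPM in the GFP+ library (log2 1.98 and 2.11). Apod, a lipocalin and one of the MOL5/6 markers used here, was lower in MOL5/6 (-1.03 and -1.37). The receptor Vldlr (-0.061 and -0.089) did not pass in either library, nor did Abca2 (0.046 and -0.11), Npc2 (-0.068 and -0.36) or Npc1 (-0.23 and 0.0022). The list's median was -0.068 and -0.26. The 10 myelin genes had a median of -0.12 and -0.095 and 1 call, Opalin, higher in MOL5/6 (2.30 and 2.54), while Mbp had -0.13 and -0.053, Cldn11 -0.0018 and -0.017, Cnp 0.20 and 0.24, and Mal 0.57 and 0.63. Immediate early genes, which can rise on dissociation, were called higher for 2 of 10, Junb and Nr4a1 (4.79% of all genes), with a summed ratio of 0.24 and 0.57, while Jun had -0.25 and 0.18 and Fos 0.66 and 0.57. Astrocyte markers, of which 7 of 8 are rows, summed to 163 and 175 CPM in MOL5/6 and to 329 and 257 CPM in MOL2. Their part in the difference was not tested.

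MOL1 was the other mature label with high levels. The sum stood at 609 CPM among TdTom+ cells and 529 CPM among GFP+ cells, against 373 and 382 CPM in the other mature labels. The log2 ratio was 0.70 (0.52 to 0.89) and 0.47 (0.17 to 0.76). None of the 3 enzymes past 50 CPM was called higher (background 2.1%), and over all 7 in range 1 was, Sqle (0.69 and 0.71, background 2.72%). The Sqle call was lost after thinning (0.21 and 0.26) and without the cell of each label and library with most UMIs of the 7 (0.49 and 0.33). Hmgcs1 came to 0.58 and 0.59 and Fdps to 0.54 and 0.77. The other 13 synthesis genes had 0.31 (0.093 to 0.52) and 0.11 (-0.24 to 0.43). Among them Sc5d, a sterol desaturase, was called higher (0.73 and 1.07). Hsd17b7 had 2 UMIs in MOL1 of the TdTom+ library and 0 in that of the GFP+ library, so no fold is given. Of the other lists, Fnta (0.62 and 0.78), the sterol-linked ubiquitin ligase Rnf139 (1.05 and 0.60) and Apoe (0.60 and 1.03) were called higher, where 2.94% of all genes were with no filter. Lrp1 rests on 1 UMI in MOL1 of each library. Immediate early genes moved with this label much more, at 7426 and 7437 CPM in MOL1 against 668 and 621 CPM in the other mature labels. Egr2 and Egr1, genes of this kind, are among the MOL1 markers used here. Astrocyte markers were lower in MOL1, at 157 against 234 CPM (log2 -0.58, -0.94 to -0.24) and 114 against 218 CPM (-0.93, -1.61 to -0.34). Their part in the enzymes' levels was not tested.

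In MFOL1, myelin-forming OLs, the enzymes were close to the mature level. The sum stood at 470 and 458 CPM against 395 and 393 CPM in the 7 mature labels, a log2 ratio of 0.25 (0.091 to 0.41) and 0.22 (-0.0072 to 0.44). Without the 5% of cells with most UMIs in each library the ratios were 0.087 and 0.042. None of the 7 was called in either direction. The background was 2.87% higher and 5.75% lower of the genes past 50 CPM, and 3.92% and 6.74% of the genes in range. Cyp51 had 0.80 and 0.58, and the GFP+ value turned to -0.42 after thinning. Hmgcs1 had 0.63 and 0.14, and the GFP+ value turned to -0.088 as the mean of each cell's CPM, to -0.079 after thinning and to -0.023 without the 5% of cells with most UMIs. The other 13 synthesis genes had -0.040 and -0.099. Myelin genes summed to 132% and 119% of the mature level, with Mal (1.16 and 1.29) and Opalin (1.02 and 1.24) called. Apoe (-1.10 and -0.63), Apod (-1.86 and -2.24), Abcg1 (-0.88 and -1.02) and Fnta (-0.87 and -1.20) were lower. Vldlr had 0.43 and 0.48. Astrocyte markers summed to 112 and 143 CPM in MFOL1 against 227 and 210 CPM in the mature labels, and immediate early genes to 760 and 987 CPM against 1279 and 1142 CPM. Their part in the enzymes' levels was not tested.

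OPC had the lowest summed CPM in both libraries, but not after thinning to 2400 UMIs. There OPC held 0.659 and 0.567 UMIs of the 7 per cell, MOL6b 0.635 and 0.496, and MFOL2 0.625 and 0.562. The summed level of OPC stood at 252 CPM from 39 UMIs in 48 TdTom+ cells and at 199 CPM from 22 UMIs in 35 GFP+ cells, a log2 ratio to the mature labels of -0.65 (-1.15 to -0.19) and -0.98 (-1.66 to -0.37). Of the 3 enzymes past 50 CPM, Hmgcs1 was called lower (-0.75 and -2.52, from 9 and 2 UMIs), where 23.4% of genes were, and after thinning the TdTom+ value was -0.58, just under the fold. In range Fdft1 was called too (-0.69 and -1.03, from 4 and 2 UMIs), which made 2 of 7 against 9.48%. As the mean of each cell's CPM, Fdft1 had -0.35 in the TdTom+ library, under the fold. The other 13 synthesis genes had -0.039 (-0.45 to 0.35) and -0.38 (-0.94 to 0.12). Of the 9 uptake, transport and storage genes past 50 CPM, Apoe was called higher (1.21 and 1.02), where 17.8% of genes past 50 CPM were, and Apod (-5.22 and -5.11), Abca2 (-2.73 and -2.73), Npc2 (-1.23 and -0.82) and Scarb2 (-0.72 and -2.16) were called lower. Of the 6 regulators past 50 CPM, Insig1 was called lower (-1.25 and -1.87), from 4 and 2 UMIs. Lrp1, which stood at 1.16 and 1.89 CPM in the mature labels, held 709 and 788 CPM in OPC. Astrocyte markers summed to 1006 and 951 CPM in OPC against 227 and 210 CPM in the mature labels, and 5 of the 7 were higher in OPC in both libraries, led by Slc1a2 at 548 and 471 CPM against 42.1 and 39.3 CPM, while Gfap and Gja1 had 0 UMIs in OPC. Neuron markers, of which 4 of 5 are rows, summed to 890 and 1150 CPM in OPC (138 and 127 UMIs) against 1.55 and 1.13 CPM. Of these UMIs 127 and 115 were of Meg3, 11 and 9 of Snap25 and 0 and 3 of Syt1, and Stmn2 had 0 in OPC of both libraries. Immediate early genes summed to 4643 and 3795 CPM in OPC against 1279 and 1142 CPM. Their part in the enzymes' levels was not tested.

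Between the libraries the 7 enzymes were nearly level. Over all cells the sum stood at 436 CPM for TdTom+ and 412 CPM for GFP+ cells, a log2 ratio of 0.080 (-0.0097 to 0.17). With both libraries at the same mix of labels the ratio was 0.12, and the sum was higher in the TdTom+ library in 10 of 12 labels. Msmo1 stood at 117 and 119 CPM and Hmgcs1 at 112 and 111 CPM. Fdft1 held 41.7 and 40.2 CPM, Cyp51 34.1 and 31.5 CPM, and Idi1 8.14 and 7.81 CPM. Fdps, at 78.5 and 66.9 CPM, had 0.23 (0.0099 to 0.45). Sqle, at 43.9 and 35.4 CPM, had 0.30 (0.0075 to 0.62) and was higher in the TdTom+ library in 10 labels. The intervals of Fdps and Sqle thus lay above 0 by little and cover counting error only.

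Sqle alone of the 7 passed 1.2 fold, the size used between libraries, and it no longer did without the 5% of cells with most UMIs (0.16) or without the cell of each label and library with most UMIs of the 7 (0.23). None of the 3 enzymes past 50 CPM did, where 2.06% of genes were higher and 2.33% lower in the TdTom+ library, and over genes in range the shares were 9.03% and 10.6%. One of 7 is thus near the background. Within labels, Fdps was higher in the TdTom+ library in MOL2/4, at 263 against 133 CPM. In MOL2/4 Fdft1 and Cyp51 were each lower in the TdTom+ library, at 21.9 against 77.8 CPM, from 4 and 17 UMIs, as was Msmo1 at 142 against 238 CPM. With Fdps and Sqle in COP/NFOL these were the pairs of an enzyme and a label whose interval left out 0. Of the other lists, Apod stood at 1596 CPM for TdTom+ and 2217 CPM for GFP+ cells (-0.47), Apoe at 1232 and 1334 CPM (-0.11) and Srebf2 at 82.8 and 83.4 CPM (-0.011). Of the other 13 synthesis genes none passed 1.2 fold, and their sum was 388 and 385 CPM.

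**Figure D5:**
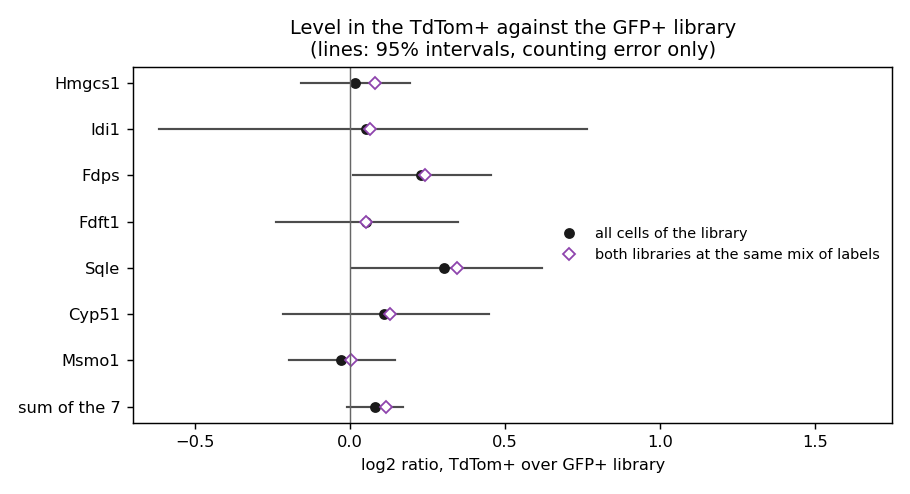
Log2 ratio of CPM, TdTom+ over GFP+ library (horizontal axis), for the 7 enzymes and their sum (vertical axis), as filled points for all cells with 95% intervals for counting error, and as open diamonds with both libraries at the same mix of labels. Fdps and Sqle lie to the right of 0 at 0.23 and 0.30, and the sum lies at 0.080.

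Other genes were ranked by how closely their log2(CPM + 1) followed that of the summed level over the 24 groups of a label and a library. Bace1, the beta-secretase, had the highest Pearson r at 0.87, followed by Lgmn, a lysosomal protease, at 0.83, Dusp15 at 0.81, Slc44a1, a choline transporter, at 0.79, Cadm4 and Gyg at 0.78, and Rab4a and Tspan9 at 0.77. Bace1 stood at 262 CPM in MOL2/4 and 97.1 CPM in MOL6b over both libraries. The median r of the 2955 genes compared was -0.099. Over the 20 groups of labels with at least 20 cells in both libraries, Bace1 was the only one of the 8 that ranked among the first 8 again, and it came last of them at 0.84, where Gsn was first at 0.90. The sum of the other 13 synthesis genes had r = 0.88 over the 24 groups and 0.90 over the 20, the isoprenoid branch 0.77 and 0.72, myelin genes 0.40 and 0.56, and regulators 0.35 and 0.26. Of the uptake list r was -0.11 and 0.44. Median UMIs per cell had r = 0.68 and 0.57. Groups share their library and the labels' clustering, so these values describe the data and were not tested.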

How the data were processed

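Reads of the 2 corpus callosum libraries were aligned by the authors with STAR (version not given in the sources used here), and the submitters' processing notes name Cell Ranger 2.1.1 and mm10. Cells with 200 to 3000 genes and under 5% mitochondrial UMIs were kept by the authors. The 3 spinal cord samples were not analysed here. When recounted, 2820 of 2853 cells lay within these limits. In the matrix the authors deposited, the signal is each gene's share of a total per cell. Dividing by the smallest value above 0 of a cell gave whole numbers for 100% of values (tolerance 0.01), taken here as UMI counts. Their totals per cell were 95.2% to 99.9% (median 99.5%) of the total count the authors deposited for the cell, and CPM used the recovered totals. The authors' library, 12 labels, merged labels and deposited count of genes per cell were read from a table of cells, of which 35 other columns were not used.

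UMIs were summed per label and library and scaled to CPM. Log2 ratios carry a pseudocount of 1 CPM, so that changes of low genes are understated. Intervals (Poisson, Clopper-Pearson, conditional ratio) are at 95%. For a difference of shares, the Clopper-Pearson margins of both shares were squared, added and put under a root. With 1 library per origin no p-value was computed. Doublets were not called here. Thinning used a seed of 1. For MOL1, the other mature labels were the comparison, and for MFOL1 and OPC all 7 mature labels. The 7 genes, the lists and the tests were chosen with earlier results of these data known. Genes named are the 7 enzymes, in each list the 4 with the highest mean CPM and up to 4 called in a comparison, and the 8 genes with the highest r. Some genes that this rule names are not reported here. Genes outside the rule (Vldlr, Npc1, Srebf1, Insig1 and Mal in MOL5/6, Lrp1, Vldlr in MFOL1) were named after their values were seen. The script was run on Poisson counts simulated for the library ratio of 2955 genes of at least 50 CPM, of which 200 were changed. It found the direction of 100% of the changed genes, and 95.0% of its intervals covered the simulated ratio. Intervals made for Poisson counts give such coverage by design. The run therefore checks the code and not the spread between real cells or the contrasts between labels. Alternatives were another pseudocount, other filters, totals without the 20 most abundant genes, cell limits, merged labels, standardized composition, thinning and other measures of likeness. The background in the enzymes' range, and leaving out single cells, were added with the values known. Computations ran in Python 3.11.15 with scipy 1.17.1, numpy 2.4.6 and pandas 2.3.3, and plots in matplotlib 3.10.9.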

Additional observations from a re-analysis of the deposited data

Results flagged for a closer look

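For 6 ratios between labels the TdTom+ and GFP+ libraries had opposite signs, leaving out Idi1 in OPC, which had 0 UMIs in the TdTom+ and 1 in the GFP+ library. The difference between libraries, TdTom+ minus GFP+ on the log2 scale, was not tested in any of them, as each library is a single sample. In MFOL1 over the mature labels it was -0.26 for Fdps (-0.12 and 0.14), -0.89 for Fdft1 (-0.85 and 0.041) and 0.42 for Sqle (0.12 and -0.30). In OPC over the mature labels it was -0.65 for Sqle (-0.27 and 0.39), which had 5 UMIs in OPC of each library. In MOL1 over the other mature labels it was -0.80 for Idi1 (-0.42 and 0.38), from 3 and 2 UMIs, and 0.55 for Fdft1 (0.17 and -0.38). Only for Fdft1 in MFOL1 of the TdTom+ library, at 23.1 CPM against 42.3 CPM, did the interval of either ratio leave out 0.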

How the results depend on the processing

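No paired analysis was possible because each origin has a single library. Of 405 ratios under an alternative, 26 changed sign, none of them of the sum and 1 in MOL5/6 over MOL2 (Fdft1 in the TdTom+ library, -0.094 to 0.053 after thinning). The ratios that changed sign were at most 0.58 in size and none was called. Cyp51 in MFOL1 of the GFP+ library went from 0.58 to -0.42 after thinning, and Msmo1 in MOL1 of the GFP+ library from 0.38 to -0.26. Of the values that answer a comparison, 6 moved beyond their interval or by over 1.5 times and 63 did not. The MFOL1 ratio of the TdTom+ library (0.25) was 0.087 without the 5% of cells with most UMIs. MOL2/4 over OPC (log2 1.73) was 2.19 with totals without the 20 most abundant genes. The difference in detection between MOL2 and MOL5/6 of the GFP+ library was 26.4 points with no thinning. Of the 8 genes with the most similar profile, 3 were shared with Spearman's rho, 2 with a filter of 200 CPM and 1 with labels of at least 20 cells, so that the names depend on the setting (Bace1, at a mean of 144 CPM, is not among the genes of the 200 CPM filter). Of single genes and background shares, 11 values moved and 346 did not. Scaling by the median gene moved the library ratios by 0.014. Depth limits OPC, COP/NFOL and MFOL2, where a single UMI or cell can set the level of an enzyme, and Idi1 in all labels.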
